A study of Mus musculus with 7 samples.

Results

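CTCF peaks inside coding exons are the 1191 autosomal CTCF ChIP-seq peaks of female mouse liver whose summit fell in the coding sequence of a protein-coding gene and lay over 1 kb from every annotated transcript start. They were 1.78% of the 67010 autosomal peaks, and the whole list held 68667 peaks including chromosome X. Each member was found by placing the peak summit on the GENCODE annotation of the mouse genome build mm9. The remaining autosomal summits were classed as promoter peaks, within 1 kb of a transcript start (15970), and otherwise as untranslated region (1214), intronic (24520), other gene (1112) and intergenic peaks (23003). Intronic and intergenic peaks serve below as the comparison.

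The study measured binding of CTCF and of the cohesin subunit Rad21 by ChIP-seq, which sequences the DNA fragments that an antibody brings down with its protein. The samples were livers of 8-week-old female Crl:CD1(ICR) mice, an outbred strain, with 4 libraries for CTCF and 3 for Rad21. No sample was treated or carried a mutation. Both lists were made from the pooled libraries of 1 antibody, so they hold no value for a single mouse and the spread between mice could not be estimated. The lists give no read counts, so the depth behind a peak is unknown, and each interval below covers counting error over peaks only.

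CTCF is a protein with a row of zinc fingers that binds an asymmetric DNA motif. Cohesin is a ring-shaped complex that extrudes DNA loops and is halted at CTCF sites, most often when it meets the protein in 1 orientation of the motif. In a coding exon, the bases of such a motif also spell codons. With the study's terms, but on the pooled lists where the study compared single replicates, a CTCF peak with 1 bp or more in common with a Rad21 peak is called CAC (cohesin and CTCF), and a CTCF peak with none is called Lone CTCF.

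The motif was a 20-bp matrix learned from the 1000 strongest CTCF peaks of odd-numbered autosomes, and its consensus was NNGCCACNAGGGGGCGCNNN. A match was called at 13.3 bits or more, a score that 1% of 57471 flanking windows reached, and the highest score the matrix can give is 28.1 bits. The sequences of 10 members follow because they are mostly among the strongest members, or those of highest motif score, and show the best-scoring window of each. Each is read 5′ to 3′ along the motif from mm9, with the 20 bases aligned to the matrix in capitals and 5 bases to either side.

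Gdf15, chr8:73153785-73153814, minus strand: ggtagCCGCCGGCAGGGGGCGCCGAagcgc
Syne1, chr10:5028724-5028753, minus strand: actcaCGGACACCAGGGGGCGCTCTtacat
Sfpi1, chr2:90955405-90955434, plus strand: atgacCTACCAGAAGATGGCGCGCGcgctg
A830031A19Rik, chr11:23949386-23949415, plus strand: gactcTGGCCACACGATGGCGCCCGcttca
Eri1, chr8:36532208-36532237, minus strand: catccTTACCAGTAGAGGGCGCTCCagctc
Dst, chr1:34275343-34275372, plus strand: caagaCGGCCAGCAGGTGGCGCCAGacacc
Crh, chr3:19594054-19594083, minus strand: ctcggTGGCCACCAGGGGGCGCTGGagagg
Crmp1, chr5:37682398-37682427, minus strand: tggagCGGCCACCAGGGGGCGCCACaatgc
Apoa1, chr9:46038099-46038128, plus strand: ctctaCCGCCAGAAGGTGGCGCCTCtgggc
Vps13d, chr4:144746042-144746071, plus strand: cttgaATTCCGCTAGGAGGAGCTGTgactc

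The first 9 passed the motif threshold. The best window of the Vps13d member scored 8.96 bits and was below it, although this was 1 of the 12 strongest members.

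Coding exons held more CTCF peaks for their length than introns or intergenic sequence did, and fewer than promoters. Of the coding sequence over 1 kb from a start, 25.3 Mb in all, the list held 47.1 peaks per Mb (95% Poisson interval 44.4 to 49.8), compared with 29.7 per Mb in introns (29.4 to 30.1) and 16.8 per Mb in intergenic sequence (16.6 to 17.1). The other exonic sequence of protein-coding genes, untranslated regions included, had 40.9 per Mb (38.6 to 43.3), and promoters, within 1 kb of a start, had 160.1 per Mb. The excess over introns was mostly of peaks without a motif. Members with a motif numbered 17.1 per Mb against 15.01 in introns, whereas those without numbered 30.0 per Mb against 14.7. Motif matches themselves were at 65.0 per Mb in coding sequence, 55.5 in introns and 38.8 in intergenic sequence. The median GC content within 100 bp of the summit was 57.2% in members and 48.3% in both intronic and intergenic peaks, and its part in these rates was not tested. The lengths also count bases where reads do not align uniquely, and such alignments were dropped before peaks were called. How many such bases each class held was not measured, and their part in these rates was not tested.

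The 1191 summits lay in 1103 host genes, counted by symbol, 6.004% of the 18372 autosomal genes that had coding sequence over 1 kb from a start. Of the hosts, 1023 had 1 member, 73 had 2, 6 had 3 and 1 had 4. Hosts had more coding sequence that could be counted, with a median of 1687 bp against 982 bp for all those genes. Only 1 member lay in the coding sequence of more than 1 gene, and 1164 lay in the longest coding transcript of their host. Chromosome 7 had the most members (106, 2.51% of its peaks) and chromosome 13 the fewest (33, 1.19%).

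Most summits were in internal coding exons. There were 771 in internal, 282 in last, 82 in first and 56 in only coding exons. The exons had a median coding length of 206 bp (interquartile range 141 to 575), from 7 bp to the 7467 bp of the largest exon of Apob. The median distance from the summit to the nearest edge of the coding sequence was 58 bp, and 212 summits were under 20 bp from it. Since the median peak was 393 bp wide, a peak commonly ran past its exon. The median member had 59.2% of its bases in coding sequence, and 232 members lay wholly inside it. The median distance to the nearest transcript start was 6351 bp (interquartile range 2566.5 to 14540).

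CTCF binding at members was weaker than at intergenic peaks and close to that at intronic peaks. The fold enrichment at the summit, the ratio of pileup to local background given in the list, had a median of 5.46 in members (order-statistic interval 5.09 to 5.88), 5.63 in introns and 7.75 in intergenic sequence. Members ranged from 1.79 to 29.3. By construction 50% of autosomal peaks were at or above the autosomal median of 6.03, and 546 members (45.8%) were. The share was 47.4% in introns, a difference of −1.53 percentage points (−4.41 to 1.38) that did not pass (adjusted exact p = 0.437). It was 58.1% in intergenic peaks, a difference of −12.3 points (−15.2 to −9.40, adjusted exact p = 4.06e-16). P-values here and in the next comparisons are from two-sided Fisher's exact tests, Benjamini-Hochberg adjusted over 8 tests. At a fold enrichment of at least 10, the share of members was 28.5% against 31.5% in introns and 33.2% of all autosomal peaks, and this difference passed (adjusted exact p = 0.0474). Among peaks with a −log10 q of at least 10, 45.6% of members and 51.0% of intronic peaks were at or above the median fold enrichment of those peaks. That difference of −5.38 points also passed (adjusted exact p = 0.0047).

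**Figure D1:**
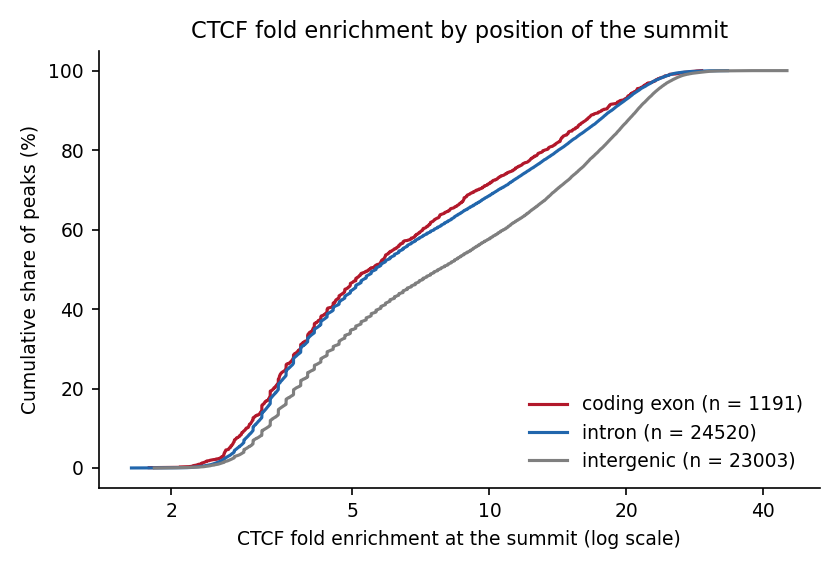
Cumulative share of peaks (vertical axis, %) by CTCF fold enrichment at the summit (horizontal axis, log scale) for 1191 coding exon peaks, 24520 intronic peaks and 23003 intergenic peaks. The coding exon and intronic curves run close together, with medians of 5.46 and 5.63, and the intergenic curve lies to their right, with a median of 7.75.

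The 12 strongest members all overlapped a Rad21 peak, and 11 of the 12 had a motif. In the highest decile of autosomal fold enrichment, 99.9% of intronic and 99.6% of intergenic peaks overlapped one, and 86.5% and 85.3% had a motif. A830031A19Rik, Wdr72 and 1500009C09Rik were among the peaks used to learn the matrix, so their motif calls are not independent of it. The strongest member was in the last coding exon of Gdf15, a stress-induced secreted protein of the TGF-beta family. Its fold enrichment was 29.3 for CTCF and 11.5 for Rad21. Its motif scored 21.8 bits and lay wholly in coding sequence, and the summit was 264 bp from the nearest exon edge. The next were 5430411K18Rik (28.6) and Syne1 (28.2), which encodes the nuclear envelope protein nesprin-1. At Syne1 the summit was 1 bp from the exon edge and 0 of the 20 motif bases were coding, so the motif lay beside the exon.

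Sfpi1, which encodes the blood cell transcription factor PU.1, had 27.5 for CTCF and the highest Rad21 fold enrichment of all members, 29.0. Its peak was in the last of 5 coding exons. A830031A19Rik had 27.4 for CTCF and 25.7 for Rad21. Adcy5, an adenylate cyclase, had 26.8, Mms22l, a protein of replication fork repair, 26.6, and Wdr72 26.5. Fam149b (26.1), 1500009C09Rik (25.9) and Eri1 (25.6), an exoribonuclease that acts on histone mRNA, followed. Vps13d, which encodes a large lipid transfer protein, had a fold enrichment of 24.9 with a Rad21 value of 20.9 and no motif. At Fam149b, Rad21 was at 6.98, the lowest of the 12, and the motif score was also low, at 13.5 bits.

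The weakest members were in Gcat, an enzyme of threonine breakdown (1.79), Fbxl15, a ubiquitin ligase subunit (2.09), and 6430527G18Rik (2.09). The last of these overlapped a Rad21 peak and the other two did not, and none of the 3 had a motif. At the edge of the 1 kb rule, the member closest to a transcript start was in Inhbe, an inhibin subunit gene of hepatocytes, 1003 bp away with a fold enrichment of 9.09. The coding peak nearest on the other side of the limit was in Ppp1r3g, 998 bp from a start with a fold enrichment of 4.40. Both overlapped a Rad21 peak.

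Cohesin was found at most members, at a share close to that in introns and below that in intergenic sequence. Of the 1191, 793 were CAC, or 66.6% (63.9 to 69.2, Wilson), and the other 398 were Lone CTCF, against 73.8% CAC among all autosomal CTCF peaks. The share was 65.8% in introns, a difference of 0.828 points (−1.964 to 3.52, adjusted exact p = 0.574), and 75.7% in intergenic peaks, a difference of −9.09 points (−11.9 to −6.41, adjusted exact p = 1.68e-11). Within deciles of fold enrichment the difference from intergenic peaks was −2.76 points (Mantel-Haenszel chi-square, adjusted p = 0.0498). That value pools deciles of both signs. In the 3 lowest deciles the shares were 38.6%, 34.3% and 42.1% in members and 49.0%, 49.5% and 49.8% in intergenic peaks, whereas in the sixth and seventh they were 80.2% and 88.5% against 72.0% and 86.3%. The single deciles were not tested. Nearly all peaks of the upper deciles were CAC in both classes, and among peaks with a fold enrichment of at least 5 it was −0.962 points and no longer passed (adjusted exact p = 0.438). Against introns the same limit gave 88.1% and 84.6%, a difference of 3.44 points that did pass (adjusted exact p = 0.0353). Requiring 50% of the CTCF peak to be covered, or summits within 100 bp, turned the direction against introns, to −1.16 and −0.930 points, and neither passed.

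Among members, overlap rose with CTCF fold enrichment. The CAC share was 36.9%, 51.0%, 80.1% and 98.3% from the lowest to the highest quartile of members. All 90 members in the highest decile of autosomal fold enrichment, at 19.5 or more, were CAC, as were 99.9% of intronic and 99.6% of intergenic peaks in that decile. In the lowest decile, with 153 members, the CAC share was 38.6%, against 40.5% in introns. CAC members had a median fold enrichment of 8.20 and Lone CTCF members of 3.67. The 793 CAC members lay on 789 Rad21 peaks, with a median of 34 bp between the summits of the 2 proteins. The Rad21 fold enrichment at CAC members had a median of 5.54 (interquartile range 3.84 to 9.90). Its rank correlation with that of CTCF was 0.78 across the 793 members and 0.79 across 16123 intronic CAC peaks, given as a description over peaks of the same 2 pooled lists.

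**Figure D2:**
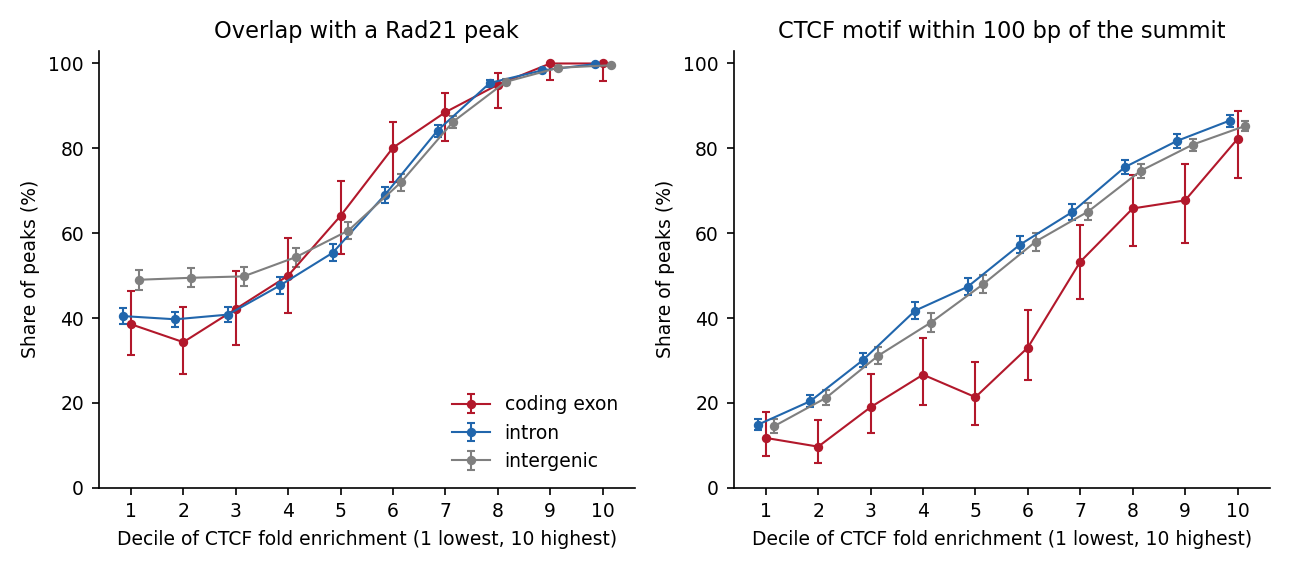
Share of peaks (vertical axes, %) that overlapped a Rad21 peak (left) or had a CTCF motif within 100 bp of the summit (right), by decile of autosomal CTCF fold enrichment (horizontal axes), with 95% Wilson intervals as bars. The Rad21 share of coding exon peaks is 38.6% in the first decile, 34.3% in the second and 100% in the last 2, and its interval lies above that of intronic peaks in the sixth (80.2% against 69.1%), whereas their motif share lies below both other classes in all 10 deciles and is 82.2% in the highest.

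Several Lone CTCF members were strong all the same. The 6 strongest were in Dst (14.8), Zc3h13 (13.003), Znhit1 (12.4), Sema3e (11.8), Nceh1 (11.5) and Npc1 (11.3). Dst encodes the cytoskeletal linker dystonin, Zc3h13 a subunit of the RNA methyltransferase complex, Znhit1 a subunit of a chromatin remodelling complex, Sema3e a guidance ligand, Nceh1 a cholesterol ester hydrolase and Npc1 a lysosomal cholesterol transporter. Of the 6, 3 had a motif, with scores of 21.3 bits at Dst, 22.3 at Sema3e and 21.5 at Nceh1, and the best window of Znhit1 (−1.74) was far below the threshold. The aligned windows of 3 of them are shown because they contrast motif-bearing with motif-less binding at like fold enrichment.

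Dst, chr1:34246974-34247003, plus strand: agcgtCAGCCTCCAGGGGGCGCCCTgtgga
Nceh1, chr3:27183331-27183360, plus strand: ccgtaAGGCCAGAAGAGGGCGCAAGatctc
Znhit1, chr5:137458517-137458546, plus strand: caggcTGTCAAGTAGTTGGGGCCCTcagat

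Dst held a second peak in a downstream exon, where the fold enrichment was 21.4 for CTCF and 26.9 for Rad21, the second highest of all members. So 1 gene carried both the strongest Lone CTCF member and 1 of the strongest cohesin sites. The other members of highest Rad21 fold enrichment were in Eri1 (25.9), A830031A19Rik (25.7), 4932411G14Rik (24.8) and Cwh43 (24.8). The Cwh43 window scored 13.04 bits and fell just short of the threshold.

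Members had a motif less often than intronic and intergenic peaks, and more often than the 19.8% of promoter peaks. On all autosomes 432 of 1191 (36.3%) had a match within 100 bp of the summit, against 45.1% of all autosomal CTCF peaks. On the even-numbered autosomes, which the matrix had not been learned from, the share was 36.1% of 513 members, 49.5% of intronic peaks and 55.7% of intergenic peaks, where 44.6% of all peaks had a match. The difference was −13.4 points from introns (−17.6 to −9.08, adjusted exact p = 4.37e-09) and −19.6 points from intergenic peaks (−23.8 to −15.3, adjusted exact p = 3.05e-17). Within deciles of fold enrichment it was −12.7 points from introns and fell in size to −12.6 points from intergenic peaks, and both passed. With a looser threshold of 8.01 bits, reached by 5% of flanking windows, the difference was −6.74 points from introns and −12.8 points from intergenic peaks, both past the threshold.

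Motif-bearing members were stronger. The values in this paragraph use all autosomes, also the odd-numbered ones whose strongest peaks gave the matrix, so strength and motif calls are not independent there. Their median fold enrichment was 11.2, against 4.20 for members without a motif, and the motif share rose from 11.1% in the lowest quartile of members to 72.1% in the highest. A motif was present at 43.0% of CAC and 22.9% of Lone CTCF members, a difference of 20.1 points (14.6 to 25.3, adjusted exact p = 1.66e-11 over a second family of 8 Fisher's exact tests that was added after the data were seen). Within deciles of fold enrichment this difference turned to −7.24 points (−12.8 to −1.65, Mantel-Haenszel chi-square, adjusted p = 0.0243), so at like CTCF strength it was the Lone CTCF members that had a motif more often. Long exons had fewer. The share was 32.1% in coding exons over 500 bp and 42.2% in those up to 150 bp (difference −10.0 points, −17.1 to −2.79, adjusted exact p = 0.0146), and the median GC content of these members was 61.9% and 52.2%.

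The motif match was usually itself coding. Of 432, 366 lay wholly in coding sequence, 43 crossed an exon edge and 23 lay outside. The median distance from the centre of the match to the summit was 15 bp. The 6 highest scores were at Crh (27.8 bits), Crmp1 (27.0), Epb4.9 (27.0), Dst (26.3), Scube3 (26.1) and Coro7 (25.4). Crh encodes corticotropin-releasing hormone, Crmp1 a protein of axon guidance signalling, Epb4.9 the actin-bundling protein dematin, Scube3 a secreted glycoprotein and Coro7 a coronin. The matches at Epb4.9 and Scube3 lay outside coding sequence, and the other 4 were wholly coding. A high score did not always go with strong binding. Crmp1 had a fold enrichment of 4.89 and was Lone CTCF, and Coro7 had 4.58, while Crh, Epb4.9, Dst and Scube3 were between 21.1 and 23.2.

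Motifs at members pointed along the gene or against it with no difference that passed. Of 432, 206 were sense (47.7%) and 226 antisense (exact binomial test, adjusted p = 0.437). Among all 1645 motif matches in coding sequence over 1 kb from a start, 46.4% were sense, and among the 1152 outside CTCF peaks 46.3% were. The reading frame was uneven. The first base of a match was taken along the gene, so in an antisense match it is the last base of the motif as printed. Of 366 wholly coding matches at members, 45.9% had it at codon position 3, 33.9% at position 1 and 20.2% at position 2. Pooled shares thus mix the 2 ends of the motif, and sense and antisense shares refer to different motif bases. Over both strands, the shares in 1075 unoccupied coding matches were 46.3%, 34.0% and 19.7%. By strand, 13.4% of 172 sense and 26.3% of 194 antisense matches at members began at position 2, against 16.7% of 485 and 22.2% of 590 among unoccupied matches. At position 1 the shares were 38.4% sense and 29.9% antisense at members, and 31.8% and 35.8% among unoccupied matches. Differences between strands or between occupied and unoccupied matches were not tested here. The frame was read from the annotation and checked on the transcripts of chromosome 2. There 3 of 2473758 codons were stop codons, with exons counted once per transcript and the last codon of each left out.

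**Figure D3:**
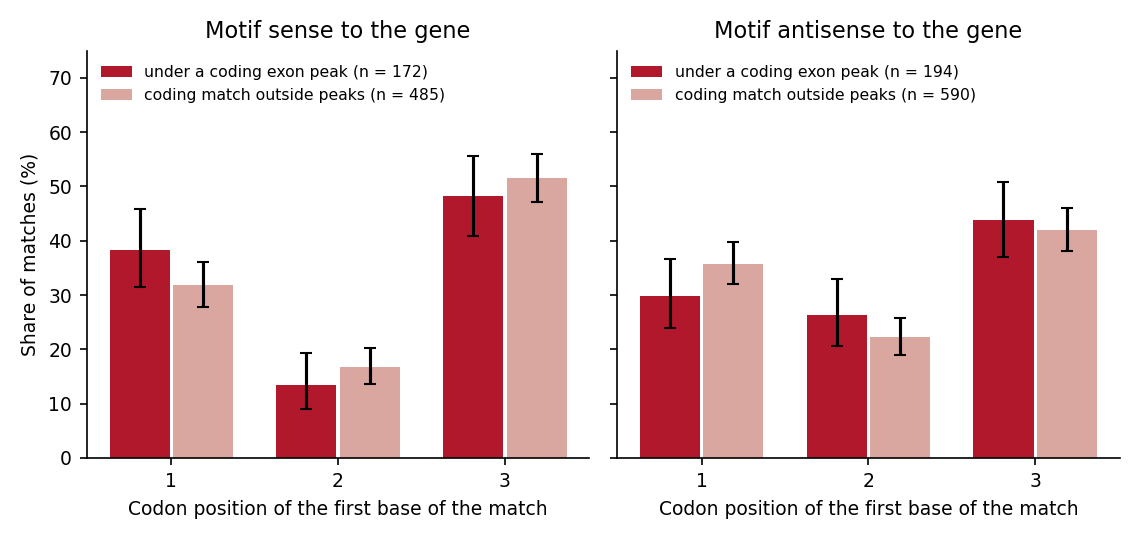
Share of wholly coding motif matches (vertical axis, %) by the codon position of the first base of the match along the gene, with 95% Wilson intervals. Matches are sense (left) or antisense (right) to the gene, and in an antisense match that base is the last of the motif. In both panels position 3 is the most common and position 2 the least common, both for matches under coding exon peaks (172 sense, 194 antisense) and for coding matches outside peaks (485 and 590).

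Motifs at members had a CpG, the dinucleotide that is methylated in mammalian DNA, more often than those at intronic peaks. Of 432 matches, 260 (60.2%) contained a CpG, against 35.1% of 12382 intronic matches, a difference of 25.04 points (20.3 to 29.6, adjusted exact p = 2.85e-24 over the added family). The share was 41.8% at intergenic peaks and 64.9% at promoter peaks, which were not tested against members. Outside peaks, 47.7% of coding matches contained a CpG, against 26.9% of intronic matches. Coding matches that overlapped a peak contained one in 61.5%.

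Over all peaks the CAC share of members did not pass a difference from introns, as given above. In a comparison of peaks with a motif, added after the data were seen, cohesin was more frequent in coding exons than in introns. Of 432 members with a motif 78.9% were CAC, against 71.4% of 12382 intronic peaks with a motif, a difference of 7.53 points (3.37 to 11.2, adjusted exact p = 0.0013). Within deciles of fold enrichment it was 3.92 points (0.891 to 6.94, Mantel-Haenszel chi-square, adjusted p = 0.0239), and on even-numbered autosomes alone 8.36 points (adjusted exact p = 0.0239). Without a motif the shares were 59.6% and 60.0%, a difference of −0.441 points (−4.08 to 3.10, adjusted exact p = 0.819). Whether the difference at peaks with a motif departs from that at peaks without was not tested.

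Rad21 lay more often to 1 side of the motif. Among 337 CAC members with a motif and a Rad21 summit within 500 bp but not on its centre, the summit was on the 3′ side of the motif, as printed above, in 216 (64.1%, 58.8 to 69.0, exact binomial test added after the data were seen, p = 2.56e-07). The median offset was 13 bp. The share was 67.7% at intronic peaks (difference −3.63 points, −8.97 to 1.40, adjusted exact p = 0.230 over the added family) and 70.0% at intergenic peaks (difference −5.93 points, −11.3 to −0.908, adjusted exact p = 0.0349).

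**Figure D4:**
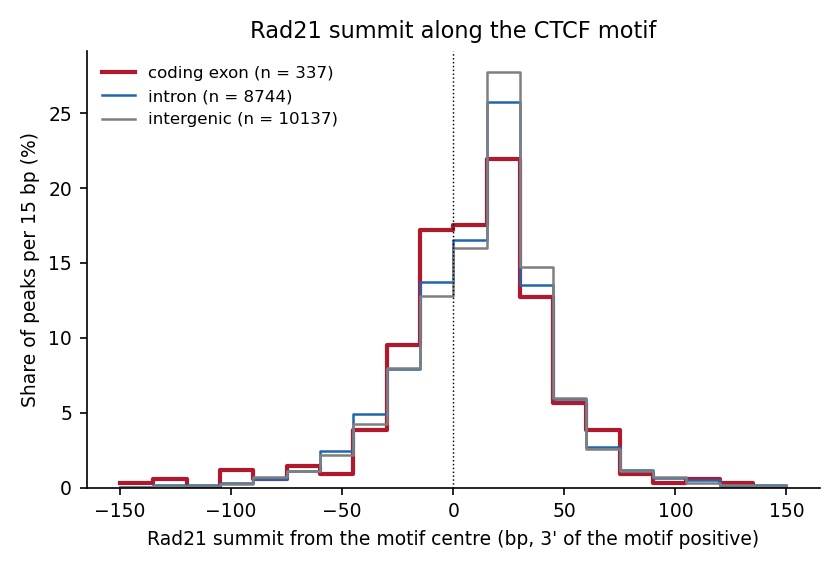
Position of the Rad21 summit relative to the centre of the CTCF motif (horizontal axis, bp, positive on the 3′ side) as a share of peaks per 15 bp (vertical axis, %), for CAC peaks with a motif in coding exons (337), introns (8744) and intergenic sequence (10137). All 3 distributions peak just 3′ of the motif centre, with medians of 13, 15 and 17 bp.

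Motif matches in coding sequence were occupied at a share close to that in introns. On even-numbered autosomes, 223 of 715 coding matches (31.2%) overlapped a CTCF peak, against 6233 of 21039 intronic matches (29.6%) and 29% of all matches. The difference was 1.56 points (−1.78 to 5.11, adjusted exact p = 0.437). Matches were counted also where reads do not align uniquely, and the part of such matches in these shares was not tested. The difference turned to −6.03 points (−12.7 to 0.493, adjusted exact p = 0.116) among matches at least 3 bits above the threshold. Split by score, the coding share was 18.2% from 13.3 to 15.3 bits, 30.3% in the next bin, then 48.1%, 84.2%, and 100% in the last 2, where all 21 and all 6 matches were occupied. The intronic shares were 13.4%, 32.5%, 57.3%, 64.7%, 84.0% and 93.8%. Of the 6 bins, tested after the data were seen, the first (4.80 points) and the fourth (19.5 points) passed in favour of coding matches, each with an adjusted p of 0.0436 by Fisher's exact test, and the third was −9.14 points (adjusted exact p = 0.166).

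**Figure D5:**
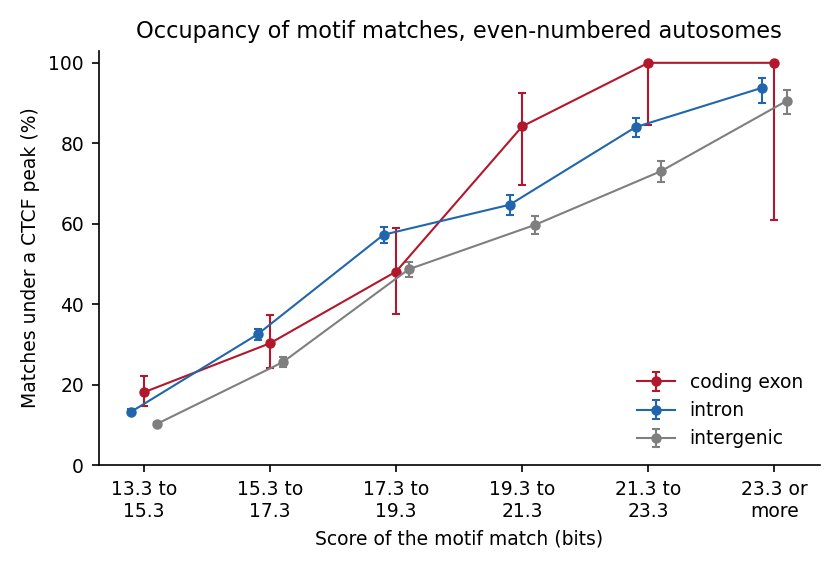
Share of motif matches under a CTCF peak (vertical axis, %) by match score in bits (horizontal axis) on even-numbered autosomes, with 95% Wilson intervals, for coding exons, introns and intergenic sequence. Occupancy climbs with score in all classes, and in coding exons it goes from 48.1% of 81 matches between 17.3 and 19.3 bits to 84.2% of 38 matches in the next bin.

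Some members lay at matching places in related exons. The 20 bases on either side of the best motif window were compared between all pairs of members in different genes among the 1157 whose sequence was read. Of 668654 pairs, 7 had at least 28 of the 40 flanking bases identical. The genes in these pairs were chosen after their values were seen. Described here are 2 of the pairs, from gene families with coding exons of equal length, whose windows are shown because the same coding stretch was bound in each gene.

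Smad1, chr8:81863633-81863662, plus strand: atctcAATCCAGCAGGGGGTGCTGGtaaca
Smad9, chr3:54601309-54601338, minus strand: atctcGATCCAGCAGGGGGTGCTCGtgaca
Hoxc10, chr15:102801357-102801386, minus strand: cttgcTAATCTCCAGGCGGCGCTCTcgcgt
Hoxd10, chr2:74532276-74532305, minus strand: cttacTGATCTCTAGGCGGCGCTCGcgggt

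Smad1 and Smad9 encode transcription factors of BMP signalling, and both peaks were in the last coding exon, 141 bp long. The pair shared 33 flanking and 18 aligned bases and had nearly equal scores of 16.4 bits. The fold enrichment of CTCF and Rad21 was 14.0 and 11.4 at Smad1, and 4.09 and 5.69 at Smad9. Hoxc10 and Hoxd10, homeodomain factors that pattern the posterior body, shared 31 flanking and 17 aligned bases in last coding exons of 275 bp. Their fold enrichment was 5.90 and 5.41, both were Lone CTCF, and with scores of 7.86 and 9.51 bits neither passed the motif threshold.

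Among the hosts with several members, Syne1 had peaks of 28.2, 20.4 and 4.40, all CAC. Macf1, a cytoskeletal linker, had 4.41, 4.09 and 3.39, and the last 2 lay on the same Rad21 peak. Spnb4, a spectrin of axons, had 15.7, 13.1 and 5.14, all CAC. Synpo, which encodes the actin-binding protein synaptopodin, had 24.2, 4.93 and 2.86, of which the last was Lone CTCF. Vps13d had 24.9, 5.96 and 2.73, all CAC and none with a motif, and the last of these lay in a separate gene record of the same symbol. Tchh, which encodes the hair follicle protein trichohyalin, was the host of 4, all in its 4659-bp last coding exon, with fold enrichments of 8.77, 3.92, 2.87 and 2.39 and no motif.

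Members stood closer to other CTCF peaks than intronic peaks did, as a description. Another CTCF summit lay within 10 kb, on either side, of 72.1% of members and 64.9% of intronic peaks, and the median distance was 5959 bp and 6764 bp.

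Genes of hepatocyte function were among the hosts. Of 70 such genes with countable coding sequence, 10 held 13 members, or 97.5 per Mb against 47.0 per Mb over all autosomal protein-coding genes. Their median fold enrichment was 4.17 against 5.46 for all members, 9 were CAC (69.2%, against 66.6% of all members) and 1 had a motif (7.69%, against 36.3%). F12, coagulation factor XII, had the strongest (15.5, Rad21 9.54) and a second of 2.74. Apoa1, the main protein of high-density lipoprotein, had 11.9 with a Rad21 value of 4.45, and its motif of 19.01 bits, printed above, lay in the last coding exon. Serpinc1, antithrombin, had 11.2, and the liver transcription factor gene Foxa1 had 7.52. Both were CAC without a motif, with best windows of 3.13 and 7.70 bits. Apob, the structural protein of low-density lipoprotein, had 3 members, of 4.17, 2.83 and 2.57, of which the first was CAC.

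Gene families differed in how many members they held, from 217 per Mb in Hox genes (3 members in 13.8 kb) and 100.9 per Mb in keratin genes to 18.2 per Mb in collagen genes among lists with a member, and no test was made of a list. The 423 zinc finger protein genes held 16 members, 22.7 per Mb. The strongest was in Glis3 (24.0), a transcription factor, and the next in Zfp219 (23.2), and 12 of 16 were CAC. The 234 olfactory receptor genes held 0 in 64.3 kb of countable coding sequence, which allows up to 46.6 per Mb, beside 47.0 per Mb over all genes. The 355 solute carrier genes held 18 (37.9 per Mb), with a median of 3.96 and the strongest in the sodium-calcium exchanger Slc8a3 (19.7) and the urate transporter Slc2a9 (11.5). The 98 cytochrome P450 genes held 3, in Cyp2j6 (9.07), Cyp4f15 (4.84) and Cyp2f2 (2.28), all CAC.

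Potassium channel genes held 11 members, 94.5 per Mb, led by Kcnk15 (20.5) and Kcnh4 (11.8), and 5 were CAC. Keratin genes held 5, led by Krt77 (6.46) and Krt10 (5.17), with 4 CAC. Axonemal dynein heavy chain genes held 6, all CAC, from 18.7 at Dnahc1 and 11.7 at Dnahc12 to 6.32 at Dnahc10. The 3 collagen members were also all CAC, at Col16a1 (22.0), Col28a1 (18.4) and Col15a1 (4.93). The 3 laminin members, at Lama4 (10.99), Lama1 (4.30) and Lamb3 (3.06), were all Lone CTCF, and Lama4 and Lama1 had motifs of 18.5 and 20.5 bits. The 3 Hox members, at Hoxc10, Hoxd10 and Hoxb3 (4.95), were Lone CTCF as well. Over all members 66.6% were CAC, and no difference between these small lists was tested.

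The remaining lists held 1 to 7 members each. Protocadherin genes held 5, led by Pcdh8 (14.4) and Pcdh15 (10.03), calcium channel genes 4, led by Cacna1a (14.2) and Cacna1c (6.87), and ADAM and ADAMTS protease genes 6, led by Adamts4 (12.3) and Adamts8 (11.6). ATP-binding cassette transporter genes held 6, led by the bile phospholipid transporter gene Abcb4 (7.01) and the channel subunit gene Abcc9 (4.81), myosin heavy chain genes 7, led by Myo3b (20.7) and Myh14 (16.6), and plexin and semaphorin genes 4, led by Sema3e and Sema3b (6.67). Of 17 cohesin and CTCF genes, 1 held a member. It was in the last coding exon of Nipbl, which encodes the cohesin loading factor, with 10.2 for CTCF, a Rad21 value of 5.44 and a motif of 14.4 bits.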

How the data were processed

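Liver chromatin of 8-week-old female Crl:CD1(ICR) mice was assayed with 4 CTCF and 3 Rad21 libraries. The authors aligned reads with Bowtie2 (build mm9), dropped non-unique alignments, pooled libraries by antibody, and ran MACS2, removing peaks on blacklisted sequence or of identical reads only. The 2 deposited lists give for each peak a fold enrichment at the summit (a ratio), −log10 p and q values and a score made from them. The fold was used as deposited. A pooled list cannot show variation between mice, a region below the peak threshold can still be bound, and the lists hold no depth.

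Summits were placed on GENCODE vM1 coding sequence (mm9, same chromosome lengths). The motif was learned as a log-likelihood matrix on odd-numbered autosomes. Its scores are not those of FIMO, used in the study. Shares have Wilson intervals at the 95% level. Tests were Fisher's exact, exact binomial and, within deciles of fold, Mantel-Haenszel, in scipy 1.17.1, statsmodels 0.14.6, numpy 2.4.6 and pandas 2.3.3 and were tested on simulated data. Members were named by rule: the 12 of highest fold, the 6 each of highest fold without Rad21, highest Rad21 fold and highest motif score, the 3 weakest, hosts of 3 or more, those in listed families (the strongest 2 to 4), and the peaks next to the 1 kb limit. The members and lists were chosen with earlier results of these data known. Some sequences and the values that rest on them are not reported here.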

Additional observations from a re-analysis of the deposited data

How the results depend on the processing

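No paired analysis was possible because each deposited list pools its libraries, and leaving out a replicate could not be tried for the same reason. Of 72 tested values under other settings, 63 kept their direction and their side of the threshold, and of 23 counts and shares without a test, 21 stayed near the value reported. Requiring a −log10 q of at least 10 in both lists gave a fold difference from introns of −5.38 points, now past the threshold. Its median was taken over the peaks left. The Rad21 difference from introns was −1.35 points. A fold enrichment of at least 5 left 636 members, 5 of them in hepatocyte genes, and moved the Rad21 difference to 3.44 points from introns, now past the threshold, and to −0.962 points from intergenic peaks, no longer past it. With only the strongest member of each host gene kept, the fold difference from introns was 0.677 points. Intronic peaks were not thinned, and keeping the strongest favours a higher share of members, so this value cannot serve as a check. With a fold of at least 10 in place of the median the difference was −3.02 points and passed. Overlap of at least 50% of the CTCF peak and summits within 100 bp turned the Rad21 difference from introns to −1.16 and −0.930 points. Matches 3 bits above the threshold gave an occupancy difference of −6.03 points. Of the alternatives chosen after seeing the data, deciles of fold enrichment turned the motif difference between CAC and Lone CTCF members to −7.24 points. The motif differences kept direction and call under all 9 alternatives each, and adding X could not change them, since they use even-numbered autosomes. The cause of these changes was not tested.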
